A study of Mus musculus with 12 samples.

Results

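Genes were compared by how differently they changed in head and trunk muscle progenitors of the mouse embryo between embryonic day 11.5 (E11.5) and embryonic day 9.5 (E9.5). The quantity is the change in head, E11.5 minus E9.5, minus the same change in trunk, on log2 signal. It is called the difference in change here. A positive value means that the head's change was the higher of the regions, and a negative value that it was the lower. The comparison used 8 of the 12 arrays of the series and was fitted to 7722 genes, of which 114 were called (adjusted p under 0.05, limma with Benjamini-Hochberg adjustment over all genes tested), which is 1.48% of those tested. The 114 genes were then sorted by the gap, meaning the head mean minus the trunk mean of a stage. A gene was crossing where the gaps at E11.5 and E9.5 had opposite signs and each was at least 0.5. Otherwise it was convergent where the gap was smaller in size at E11.5 than at E9.5, and divergent where it was larger.

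The 4 groups were head at E11.5, head at E9.5, trunk at E11.5 and trunk at E9.5, each with 2 arrays, and head and trunk at E10.5 gave 4 further arrays that took no part in the sorting. All groups were ICR embryos of genotype Myf5Cre;RosaYFP, so all carried the Cre and the reporter, and there was no group without them. Cre was driven from Myf5, so the yellow fluorescent protein marked cells that had expressed this muscle determination gene and their descendants, whatever they had since become, and YFP+ cells were collected by flow cytometry from dispersed head or trunk tissue. Their RNA was amplified before it was hybridised to Affymetrix arrays, and the deposited signals have intensity as their unit. The labels do not say whether both arrays of a group came from separate embryos, litters or pools, and the p-values therefore cover only the variation among the arrays at hand, which may be technical. In such bulk samples, fewer cells of a type and less RNA per cell cannot be told apart.

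Head and trunk muscle arise from different mesoderm. Trunk muscle comes from the somites, whose dermomyotome is patterned by Pax3 and the Meox genes, while many head muscles come from pharyngeal mesoderm, where Tbx1, Isl1, Lhx2, Msc and Tcf21 act upstream of the myogenic factors. In both regions Myf5 and Myod1 commit cells to the muscle fate and Myog drives their differentiation.

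The arrays were alike in scale, with median signals of 108.6 to 110.4 intensity units. Pearson r between the arrays of a group, across genes, which are not independent replicates, lay between 0.957 and 0.981. Myf5 itself was above the median on all 8 arrays. Both E10.5 arrays numbered 1 stood apart in Xist, the RNA of the inactive X chromosome, which had a log2 signal of 7.35 in head and 6.37 in trunk there, against 11.89 to 13.10 on the other arrays. They entered the estimate of spread but not the difference in change. Leaving both out left 1 array in each E10.5 group, so that those groups added nothing to the estimate of spread. Such a fit cannot show the effect of the low Xist arrays by themselves.

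Most called genes had a lower change in head than in trunk. The value was negative for 93 genes (1.2% of those tested) and positive for 21 (0.272%), while over all 7722 genes the median was 0.01. Trunk was the region that moved in most of the 93. A head fall was called for 18 of them, beside 2.03% of all genes, and a trunk rise for 83, beside 8.73% of all genes. The median change of the 93 genes was −0.34 in head and 2.04 in trunk. Among the 21 positive genes a head rise was called for 13, beside 2.75% of all genes, and a trunk fall for 11, beside 4.71%, with medians of 1.38 in head and −0.96 in trunk. These shares use the same contrast as the sorting and only describe it.

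The count of called genes depended on single arrays, in fits with fewer degrees of freedom, and only its lowest values are given here. It was 57 without trunk E9.5 replicate 1, 60 without head E11.5 replicate 2, 61 without head E9.5 replicate 2, 64 without trunk E11.5 replicate 2 and 69 without trunk E11.5 replicate 1. In simulated arrays of the same design the test recovered 23% of 2-fold and 78% of 4-fold differences in change, with 5.43% of its calls false, so most differences of the smaller size would be missed. The simulation drew independent normal noise from the fitted spread, without deviations shared across an array. Its false share is therefore not an estimate for the 114 genes. Dim signals matter too. Of the 114 genes, 40 lay below the array median on both arrays of at least 1 of the 4 groups, and for the named genes of this kind the value after raising every signal to its array's median is given as well. Where an adjusted p without 1 array is given for a called gene, it is the highest over the 12 arrays left out in turn. The call was lost in all 12 omissions for Epcam, in 11 for Rrm2, 10 for Cluh and Ptpn13, 9 for Lhx2, Ncam1 and Pa2g4, 8 for Myf5, 7 for Stc2 and Tbx1, and 6 for Emp1, Fst and Isl1. It was lost in 5 for Abat, Col11a1, Colec12 and Igfbp5, 4 for Pcolce and Ppp1r17, 3 for Bmp4, Crabp1, Myc, Myog and Neurog1, 2 for Lbx1 and 1 for Dmrt2.

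**Figure D1:**
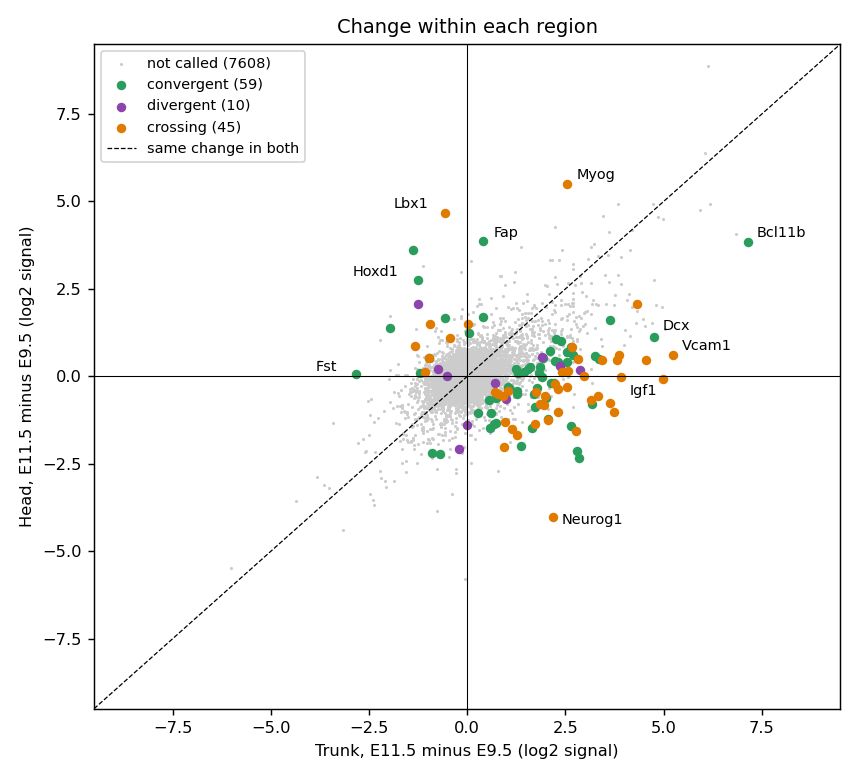
Difference of mean log2 signal, E11.5 minus E9.5, in head (vertical) and in trunk (horizontal) for each gene tested, with the 114 called genes coloured by pattern. A head rise was called for 20 of the 114 genes and a trunk rise for 84.

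There were 59 convergent genes, of which 49 were higher in head at E9.5 and 10 higher in trunk. The crossing pattern held 45 genes, of which 8 were higher in head at E11.5 and 37 higher in trunk. This sorting used group means and did not test the change of order. A head to trunk difference was called for 34 of the 45 at E9.5 and for 20 at E11.5, beside 5.92% and 2.07% of all genes. It was not called at E11.5 for Myog, Sparc, Myh7 and Bmp4, among others. The divergent pattern held 10 genes, 3 higher in head at E11.5 and 7 higher in trunk. The cutoff between crossing and the other patterns divided genes with close values. Efemp1, Chchd4 and Reck lay just inside it, with a smaller gap of 0.505, 0.508 and 0.514 in size, and Pkp2, Prr15 and Marveld1 just outside, with 0.483, 0.482 and 0.449. At the adjusted p threshold, Npr2, Efemp1 and Ptpn13 were the last genes called and Polr1b, Tdrp and Slco3a1 the first that were not. With signals raised to the array median, 58 of the 59 convergent, 38 of the 45 crossing and all 10 divergent genes kept their pattern.

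The arrays of E10.5 were not used by the sorting, and they placed most of the called genes on the way. The E10.5 gap lay between the gaps of the other stages for 98 of the 114 genes (86.0%), against 2509 of all 7722 genes (32.5%). This held for 47 of 59 convergent, 41 of 45 crossing and all 10 divergent genes. A called gene has gaps at E9.5 and E11.5 that lie far apart, which leaves more room between them than for other genes. The median gap of the 49 convergent genes higher in head was 2.08 at E9.5, 0.44 at E10.5 and −0.05 at E11.5. The gap at E10.5 was nearer to that of E11.5 than to that of E9.5 in 41 of these 49 (83.7%), and in 3895 of all genes (50.4%). For the 37 crossing genes higher in trunk at E11.5 the medians were 1.55, −0.08 and −1.24 in the same order of stages. A head to trunk difference was called at E10.5 for 20 of the 59 convergent genes and for 2 of the 45 crossing genes, beside 4.52% of all genes tested. The crossing rule asks for gaps of opposite sign, so a gap lying between them can be near 0. Convergent genes were picked for a larger gap at E9.5, which may favour an E10.5 gap nearer to that of E11.5. Both comparisons thus depend partly on the sorting. At E11.5 a difference was called for 36 of the 114 genes, beside 2.07% of all, and at E9.5 for 93, beside 5.92% of all, both by the values that sorted them.

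**Figure D2:**
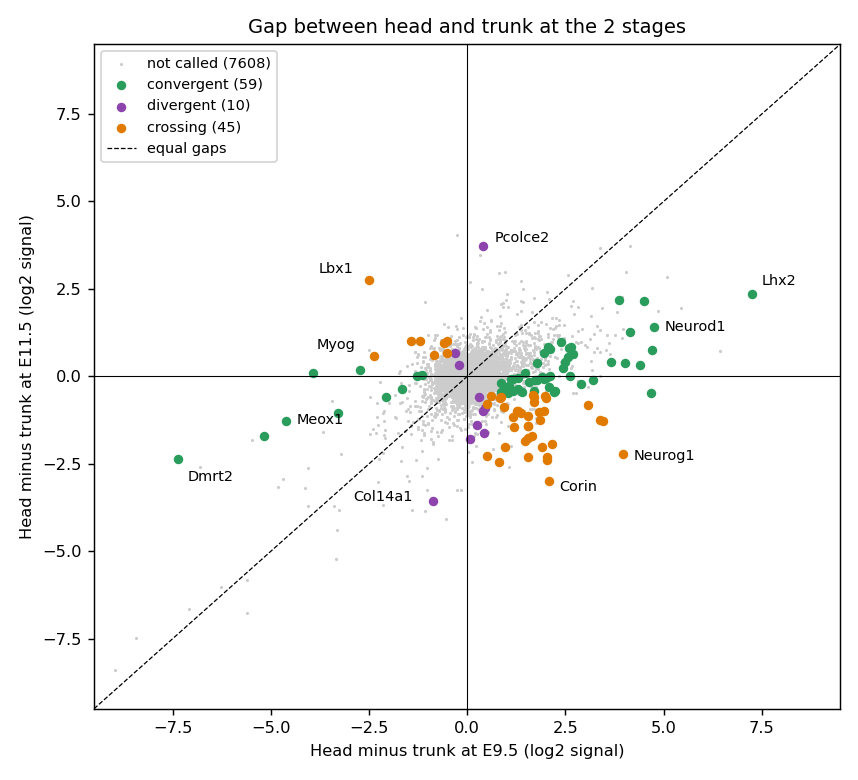
Gap between head and trunk (mean log2 signal, head minus trunk) at E9.5 (horizontal) and at E11.5 (vertical) for each gene tested. The 114 called genes are coloured by pattern, with 59 convergent, 10 divergent and 45 crossing, and the dashed line marks equal gaps.

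Several neuronal genes were among the convergent genes that were higher in head at E9.5. Of 28 neuronal markers 23 were tested, and 4 were called lower and 1 higher, beside 1.2% and 0.272% of all genes. The median difference in change was −1.31, or −0.43 with signals raised to the array median. A head rise was called for 6 of the 23, beside 2.75% of all genes, and a trunk rise for 16, beside 8.73%. Their summed signal was 16597 to 26385 in head at E11.5, 8416 to 14893 in head at E9.5, 12237 to 16333 in trunk at E11.5 and 3795 to 4520 in trunk at E9.5, and none of the markers tested was listed at 0. The part of neurons in these results was not tested.

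Dcx, a microtubule-binding protein of migrating neurons, had signals of 1806 and 2934 in head at E11.5 and 775 and 1444 in head at E9.5, against 1552 and 2025 in trunk at E11.5 and 51.1 and 85.0 in trunk at E9.5. Trunk at E9.5 alone was dim, and at E11.5 the regions overlapped. The difference in change was −3.63 ± 0.46 (SE, n = 2 arrays a group, limma adjusted p = 0.00254), or −2.90 with signals raised to the array median. At E10.5 its signals were 1958 and 1909 in head and 1678 and 1509 in trunk.

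Neurod1, a transcription factor of neuronal differentiation, moved in opposite directions. It had signals of 502 and 828 in head at E11.5 and 2287 and 2822 in head at E9.5, against 268 and 220 in trunk at E11.5 and 74.2 and 120 in trunk at E9.5. It fell by 1.98 in head (limma adjusted p = 0.0021) and rose in trunk by 1.36 (adjusted p = 0.0086), and the head arrays stayed above the trunk arrays at both stages. The difference in change was −3.34 ± 0.40 (adjusted p = 0.0017). Neurog1, which acts upstream of Neurod1 in sensory neurons, was a crossing gene at low signal. Its signals were 24.6 and 20.2 in head at E11.5 and 328 and 391 in head at E9.5, against 114 and 95.8 in trunk at E11.5 and 8.22 and 65.2 in trunk at E9.5. Its value of −6.18 ± 1.08 (adjusted p = 0.0156) became −1.74 with signals raised to the array median, where the E11.5 gap was −0.03 and the pattern convergent, and the adjusted p was 0.064 without head E9.5 replicate 2. Ncam1, a cell adhesion molecule that muscle cells carry as well as neurons, was the marker called higher, at 1.32 ± 0.26 (adjusted p = 0.0262). Its signals were 1967 and 2080 in head at E11.5 and 517 and 744 in head at E9.5, against 2491 and 2692 in trunk at E11.5 and 1956 and 1996 in trunk at E9.5. The adjusted p was 0.0987 without trunk E11.5 replicate 1, and another probe set of the gene gave −0.058.

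Further convergent genes were also higher in head at E9.5. Unc5c, a netrin receptor of axon guidance, had signals of 754 and 628 in head at E11.5 and 1083 and 1024 in head at E9.5, against 809 and 1029 in trunk at E11.5 and 202 and 251 in trunk at E9.5. Only trunk at E9.5 stood clearly below the others, and the value was −2.63 ± 0.29 (limma adjusted p = 0.00116). Ppp1r17, a phosphatase inhibitor known from cerebellar neurons, reached −3.25 ± 0.57 (adjusted p = 0.0157) and Emp1, a membrane protein of epithelia, −2.39 ± 0.44 (adjusted p = 0.0199). Their calls were lost at an adjusted p of 0.0663 without trunk E11.5 replicate 1 for Ppp1r17 and 0.0861 without head E9.5 replicate 2 for Emp1. Igfbp5, which binds insulin-like growth factors, had a value of −1.39 ± 0.27 (adjusted p = 0.0251, and 0.101 without trunk E11.5 replicate 2). Another probe set of Igfbp5 gave −0.48 and was not called (limma adjusted p = 0.81).

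**Figure D3:**
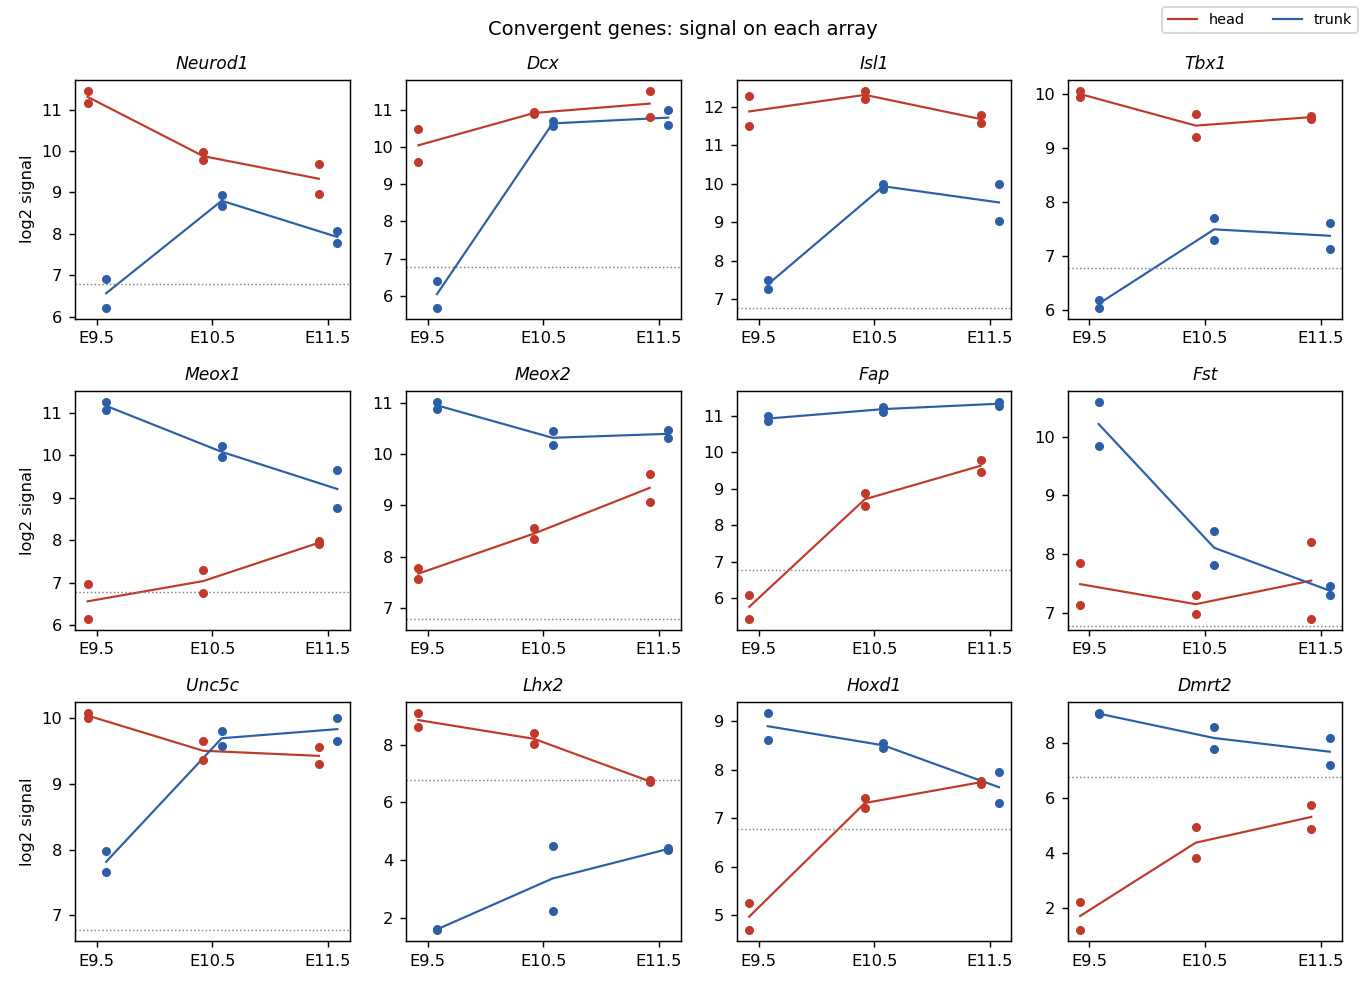
Signal of each array (log2 scale) for 12 called convergent genes at E9.5, E10.5 and E11.5, with head in red and trunk in blue, lines through the group means and the mean array median dotted. Head and trunk lay closer at E11.5 than at E9.5 in each panel.

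Regulators of pharyngeal mesoderm were higher in head at every stage by their median. Of 20 such genes 13 were tested. The difference in change was called negative for 4 and positive for 0, beside 1.2% and 0.272% of all genes. The list median was −1.68, or −1.03 with signals raised to the array median, and 11 of 13 estimates were negative. The median gap was 2.44 at E9.5, 1.91 at E10.5 and 1.96 at E11.5. At E9.5 the gap was called higher in head for 11 members and lower for 1, beside 5.92% of all genes in either direction. At E11.5 it was called higher for 4 and lower for 2, beside 2.07%. A head fall was called for 2 of the 13, beside 2.03% of all genes, and a trunk rise for 7, beside 8.73%. The summed signal was 13340 to 15431 in head at E11.5, 12838 to 14692 in head at E9.5, 9345 to 9585 in trunk at E11.5 and 5274 to 5953 in trunk at E9.5.

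Isl1, a LIM homeodomain factor of pharyngeal and cardiac progenitors that motor and sensory neurons also express, had signals of 3080 and 3502 in head at E11.5 and 2875 and 4933 in head at E9.5, against 522 and 1025 in trunk at E11.5 and 181 and 154 in trunk at E9.5. The head arrays of both stages overlapped, with a change of −0.20 (limma adjusted p = 0.81), and trunk rose by 2.13 (adjusted p = 0.00078), while head stayed above trunk on all arrays. The difference in change was −2.33 ± 0.43 (adjusted p = 0.0199, and 0.0749 without head E9.5 replicate 2). The gap was 4.49 at E9.5, 2.38 at E10.5 (adjusted p = 0.0014) and 2.17 at E11.5 (adjusted p = 0.0037).

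Tbx1, the T-box factor needed for pharyngeal muscle, had signals of 774 and 742 in head at E11.5 and 974 and 1064 in head at E9.5, against 140 and 196 in trunk at E11.5 and 66.1 and 73.1 in trunk at E9.5. The head signals were several times those of trunk at both stages. The value was −1.68 ± 0.34 (limma adjusted p = 0.031, and 0.132 without trunk E11.5 replicate 2). Raised to the array median it was −1.03 and was not called. Lhx2, a LIM homeodomain factor of head muscle progenitors and of the forebrain and eye, had signals of 109 and 103 in head at E11.5 and 389 and 550 in head at E9.5, against 21.3 and 20.6 in trunk at E11.5 and 3.07 and 2.98 in trunk at E9.5. The trunk signals were far below the array median, and the value of −4.91 ± 0.96 (adjusted p = 0.0267) became −2.08 with signals raised to it. The adjusted p was 0.131 without head E9.5 replicate 2.

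Msc and Tcf21, basic helix-loop-helix factors of the same progenitors, were not called. Msc had signals of 3557 and 3662 in head at E11.5 and 698 and 1103 in head at E9.5, against 914 and 619 in trunk at E11.5 and 45.0 and 71.5 in trunk at E9.5. Its value was −1.69, with a 95% interval of −2.64 to −0.74 before adjustment and an adjusted p of 0.0959 by limma. Tcf21 had signals of 521 and 488 in head at E11.5 and 623 and 726 in head at E9.5, against 59.9 and 82.1 in trunk at E11.5 and 7.18 and 55.2 in trunk at E9.5. The value was −2.23 ± 0.95 (adjusted p = 0.354) and turned on the trunk arrays of E9.5. It was −3.70 (adjusted p = 0.00302) without replicate 2 and −0.76 (adjusted p = 0.648) without replicate 1. With signals raised to the array median it was −0.42, and that of Msc was −0.74. Ebf2, a helix-loop-helix factor of the same list, changed order. It had signals of 636 and 764 in head at E11.5 and 1894 and 1451 in head at E9.5, against 2361 and 2335 in trunk at E11.5 and 642 and 504 in trunk at E9.5. Head was the higher region on both arrays at E9.5 and trunk on both at E11.5, and the value was −3.30 ± 0.31 (adjusted p = 0.0004).

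Several genes of the extracellular matrix were among the crossing genes that were higher in trunk at E11.5. Of 34 genes of connective tissue and matrix 31 were tested. Called lower were 6 (Postn, Tnc, Sparc, Lum, Dcn and Bgn) and higher 0, beside 1.2% and 0.272% of all genes. Of the 31 estimates 26 were negative. The median difference in change was −0.89, or −0.62 with signals raised to the array median. A head rise was called for 4 of the 31, beside 2.75% of all genes, and a trunk rise for 19, beside 8.73%. The summed signal was 37795 to 38886 in head at E11.5, 32148 to 33007 in head at E9.5, 56160 to 57439 in trunk at E11.5 and 27081 to 29765 in trunk at E9.5, with no marker tested listed at 0. Fibroblasts and other matrix-producing cells share these genes, and their part was not tested.

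Lum, a small collagen-binding proteoglycan, had signals of 203 and 266 in head at E11.5 and 779 and 607 in head at E9.5, against 1137 and 1160 in trunk at E11.5 and 175 and 163 in trunk at E9.5. It fell by 1.57 in head (limma adjusted p = 0.03) and rose in trunk by 2.76 (adjusted p = 0.00051), so the order of the regions was turned without overlap. The value was −4.33 ± 0.52 (adjusted p = 0.0017). Postn, a matrix protein of fibroblasts and periosteum, had signals of 498 and 493 in head at E11.5 and 404 and 322 in head at E9.5, against 2250 and 1767 in trunk at E11.5 and 179 and 189 in trunk at E9.5. Here trunk alone moved past the threshold, rising by 3.44 (adjusted p = 7.6e-06), and the value was −2.98 ± 0.34 (adjusted p = 0.00125).

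Tnc, the adhesion-modulating glycoprotein tenascin C, had a value of −4.09 ± 0.60 (limma adjusted p = 0.00496), or −1.94 with signals raised to the array median, since trunk at E9.5 gave 13.8 and 28.4. On raised signals its E9.5 gap was 0.01 and its pattern divergent. Sparc, a collagen-binding matricellular protein, had signals of 1100 and 1239 in head at E11.5 and 858 and 1320 in head at E9.5, against 1724 and 1756 in trunk at E11.5 and 252 and 421 in trunk at E9.5. Head overlapped between stages while trunk was higher at E11.5 on both arrays, and the value was −2.28 ± 0.36 (adjusted p = 0.00899). Dcn and Bgn, small proteoglycans related to Lum and named after their values were seen, had values of −3.26 and −2.44 (adjusted p = 0.0211 for each).

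Of 17 cartilage genes 8 were tested and 1 was called, beside 1.48% of all genes. Of 8 estimates 8 were negative, with a median of −1.39, or −0.67 with signals raised to the array median. The called gene was Col11a1, a fibrillar collagen of cartilage. It had signals of 306 and 221 in head at E11.5 and 565 and 485 in head at E9.5, against 1080 and 812 in trunk at E11.5 and 146 and 248 in trunk at E9.5. Head was higher at E9.5 and trunk at E11.5 on every array, with a value of −3.31 ± 0.60 (limma adjusted p = 0.0198, and 0.0819 without trunk E9.5 replicate 1). The summed cartilage signal was 3028 to 4097 in head at E11.5, 4641 to 4820 in head at E9.5, 5800 to 6661 in trunk at E11.5 and 2865 to 3759 in trunk at E9.5. The part of cartilage cells was not tested.

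Igf1, the insulin-like growth factor that promotes muscle growth, had signals of 1439 and 997 in head at E11.5 and 1020 and 1435 in head at E9.5, against 5462 and 4345 in trunk at E11.5 and 347 and 302 in trunk at E9.5. The head arrays of both stages overlapped, with a change of −0.01 (limma adjusted p = 0.99), while trunk rose by 3.91 (adjusted p = 1.9e-06). At E10.5 the signals were 2162 and 1762 in head and 3613 and 3085 in trunk, and the difference in change was −3.92 ± 0.32 (adjusted p = 0.000363). It belongs to a list of imprinted and insulin-like growth factor genes, of which 18 were tested, with a median of −0.37. Called lower were 2 (Igf1 and Igfbp5) and higher 0, beside 1.2% and 0.272% of all genes.

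Of 25 genes of BMP and TGF-beta signalling 17 were tested, with a median of −0.62. Called lower were 2 and higher 1, beside 1.2% and 0.272% of all genes. Tgfbi, a matrix protein induced by TGF-beta, had signals of 2743 and 2013 in head at E11.5 and 2080 and 2122 in head at E9.5, against 4706 and 4931 in trunk at E11.5 and 871 and 760 in trunk at E9.5. The head stages overlapped, and trunk passed head by E11.5, with a value of −2.40 ± 0.26 (limma adjusted p = 0.00103). Bmp4, a ligand that delays myogenic differentiation, had signals of 199 and 153 in head at E11.5 and 315 and 628 in head at E9.5, against 368 and 458 in trunk at E11.5 and 92.1 and 166 in trunk at E9.5. Its regions were in opposite order at the 2 stages, with a value of −3.09 ± 0.52 (adjusted p = 0.0127, and 0.0569 without trunk E11.5 replicate 2).

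Fst, follistatin, which binds activins and other TGF-beta family ligands and so relieves their brake on muscle, was the gene called higher. Its signals were 119 and 294 in head at E11.5 and 229 and 140 in head at E9.5, against 157 and 174 in trunk at E11.5 and 914 and 1546 in trunk at E9.5. Only trunk at E9.5 stood apart. The head change was 0.06 (limma adjusted p = 0.97), trunk fell by 2.84 (adjusted p = 0.00094), and the difference in change was 2.90 ± 0.59 (adjusted p = 0.0321, and 0.125 without head E9.5 replicate 2).

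Fabp7, a fatty acid binding protein of radial glia, was the call among 7 neural progenitor markers tested of 14, beside 1.48% of all genes called. It had signals of 265 and 196 in head at E11.5 and 322 and 462 in head at E9.5, against 1397 and 1004 in trunk at E11.5 and 58.1 and 155 in trunk at E9.5. Trunk was highest at E11.5 and lowest at E9.5, and the value was −4.40 ± 0.71 (limma adjusted p = 0.00899). The summed signal of the list was 2660 to 2991 in head at E11.5, 4968 to 5663 in head at E9.5, 4701 to 4775 in trunk at E11.5 and 3748 to 4353 in trunk at E9.5. Crabp1, a retinoic acid binding protein, had a value of −2.95 ± 0.52 (adjusted p = 0.0157, and 0.0698 without trunk E11.5 replicate 2), or −2.23 with signals raised to the array median, and was the call among 10 retinoic acid genes tested. The part of neural progenitors in these values was not tested.

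**Figure D4:**
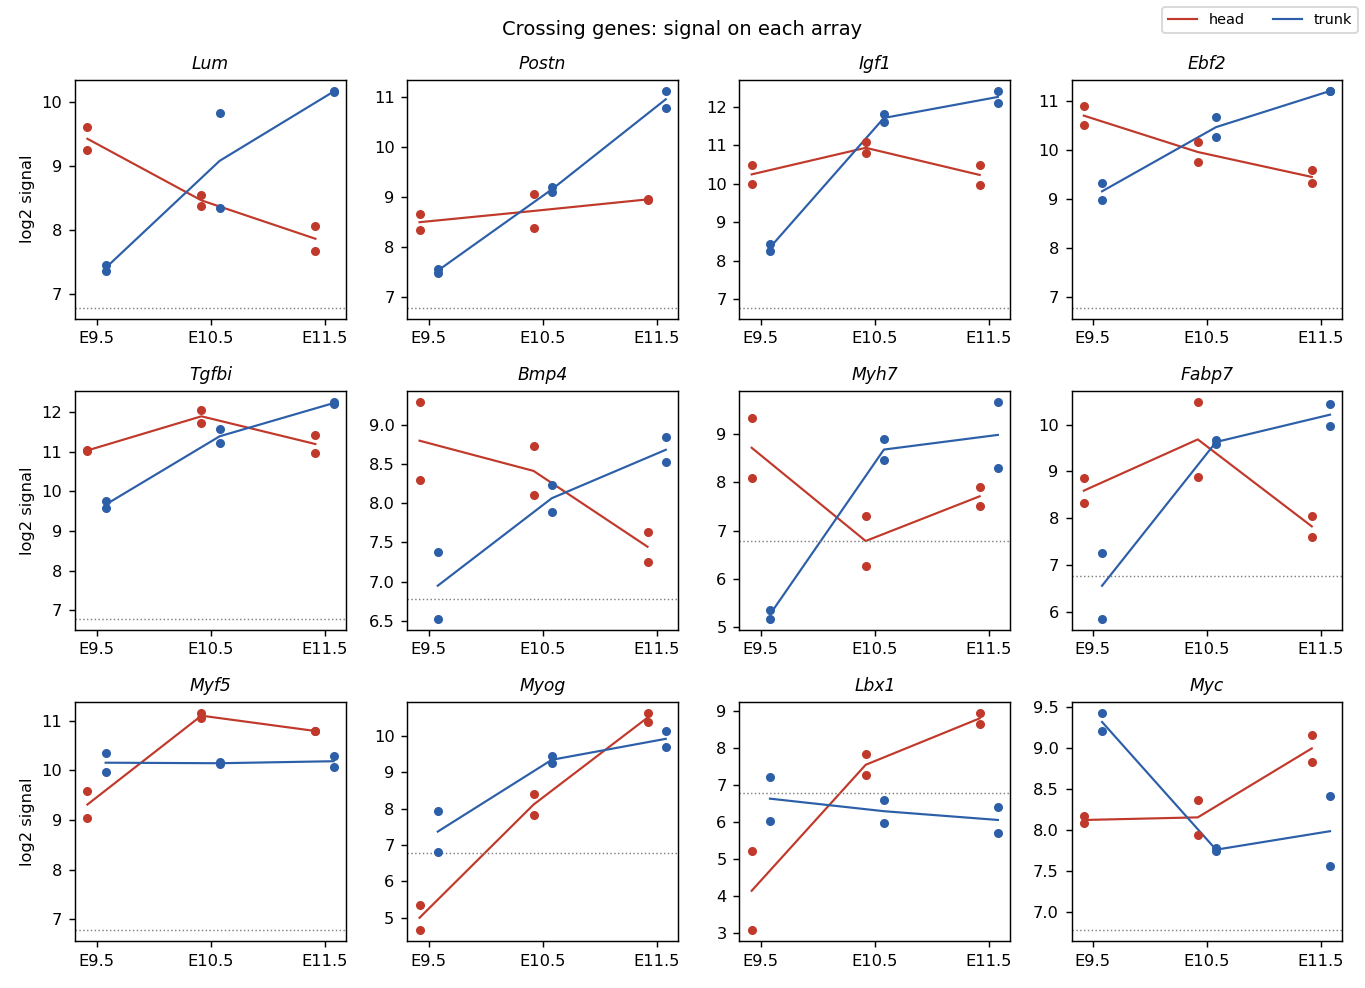
Signal of each array (log2 scale) for 12 called crossing genes at E9.5, E10.5 and E11.5, with head in red and trunk in blue, lines through the group means and the mean array median dotted. The lines of head and trunk change order between E9.5 and E11.5 in each panel. With signals raised to the array median, Lbx1 had gaps of −0.22 at E9.5 and 2.03 at E11.5. Its order still changed, but the E9.5 gap was smaller in size than the crossing cutoff, so its pattern was divergent.

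Regulators of the dermomyotome and of limb myoblasts gave the largest group of positive calls among the lists. Of 21 genes 16 were tested, and 4 were called higher (Meox1, Meox2, Dmrt2 and Lbx1) and 0 lower, beside 0.272% and 1.2% of all genes. The median difference in change was 1.06, or 0.73 with signals raised to the array median, and 11 of 16 estimates were positive. The median gap was −1.64 at E9.5, −1.26 at E10.5 and −0.80 at E11.5. The summed signal was 6024 to 6270 in head at E11.5 and 5028 to 5167 in head at E9.5, against 11644 to 12180 in trunk at E11.5 and 14533 to 15499 in trunk at E9.5. A head rise was called for 5 members, beside 2.75% of all genes, and a trunk fall for 3, beside 4.71%.

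Meox2, a homeodomain factor of somites and limb muscle, had signals of 790 and 535 in head at E11.5 and 219 and 188 in head at E9.5, against 1286 and 1427 in trunk at E11.5 and 2094 and 1899 in trunk at E9.5. It rose in head by 1.68 (limma adjusted p = 0.00097) and stayed below trunk on every array, and the value was 2.24 ± 0.31 (adjusted p = 0.00391). Meox1, its paralog in the somites, had signals of 252 and 241 in head at E11.5 and 126 and 70.9 in head at E9.5, against 435 and 805 in trunk at E11.5 and 2155 and 2465 in trunk at E9.5. It rose in head by 1.38 (adjusted p = 0.032) and fell by 1.96 in trunk (adjusted p = 0.0022), with a value of 3.34 ± 0.46 (adjusted p = 0.00415).

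Lbx1, a homeodomain factor of migrating limb and tongue muscle precursors, was a crossing gene. It had signals of 403 and 496 in head at E11.5 and 8.43 and 36.8 in head at E9.5, against 51.7 and 85.5 in trunk at E11.5 and 150 and 65.8 in trunk at E9.5. Head at E11.5 alone stood well above the array median. The value was 5.24 ± 0.88 (limma adjusted p = 0.012), and the adjusted p was 0.057 without trunk E9.5 replicate 1. With signals raised to the array median the value was 2.25, the E9.5 gap was −0.22 and the pattern was divergent, not crossing. Dmrt2, a dermomyotome factor, was below the array median in head at both stages, at 54.1 and 29.6 at E11.5 and 4.70 and 2.32 at E9.5. In trunk its signals were 147 and 290 at E11.5 and 530 and 550 at E9.5. Its value of 4.98 ± 0.81 (adjusted p = 0.00934) became 1.38 and was not called with signals raised to the array median, and the adjusted p was 0.0509 without trunk E9.5 replicate 1. Pax3, the paired box factor at the head of this network, was not called, at 1.55 ± 0.47 (adjusted p = 0.155), at 2.12 (adjusted p = 0.0259) without head E9.5 replicate 1 and at 0.98 (adjusted p = 0.338) without head E9.5 replicate 2. Its signals were 306 and 376 in head at E11.5 and 330 and 150 in head at E9.5, against 512 and 639 in trunk at E11.5 and 1118 and 1083 in trunk at E9.5.

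Other convergent genes that were higher in trunk at E9.5 included Fap and Hoxd1. Fap, a membrane protease known from activated fibroblasts, had signals of 887 and 703 in head at E11.5 and 43.0 and 68.1 in head at E9.5, against 2476 and 2670 in trunk at E11.5 and 2031 and 1850 in trunk at E9.5. Head rose by 3.87 (limma adjusted p = 6.9e-06) toward a trunk level that was high at both stages, with a value of 3.46 ± 0.33 (adjusted p = 0.0004), or 2.44 with signals raised to the array median. Hoxd1, an anterior Hox gene, had signals of 219 and 209 in head at E11.5 and 26.0 and 38.2 in head at E9.5, against 248 and 159 in trunk at E11.5 and 393 and 574 in trunk at E9.5. The regions overlapped at E11.5, and the value was 4.02 ± 0.42 (adjusted p = 0.00086), or 2.21 with signals raised to the array median, head at E9.5 being below it. It was the call among 8 Hox genes of paralog groups 1 to 4, all with positive estimates and a median of 0.53. None of 10 tested Hox genes of groups 5 to 13 was called, and their median was 0.39, or −0.25 with signals raised to the array median. With 1.48% of all genes called, lists this short do not tell the 2 sets of Hox genes apart.

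Myf5 and Myog had a higher change in head than in trunk. Of 14 such genes 9 were tested, with a median of 0.24. Called higher were 2 (Myf5 and Myog) and lower 0, beside 0.272% and 1.2% of all genes. The promoters of Myf5 and Myog, and that of Meox2, are shown because their genes had a higher change in head. They are RefSeq sequences of the GRCm38.p6 assembly, from 250 bases before to 50 after the annotated start. Capitals mark matches on either strand to the E-box CANNTG, bound by myogenic factors, and to the MEF2 pattern YTAWWWWTAR. In it Y is C or T, W is A or T and R is A or G, and only exact matches were counted.

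Myog, chr1:134289754-134290053, plus strand: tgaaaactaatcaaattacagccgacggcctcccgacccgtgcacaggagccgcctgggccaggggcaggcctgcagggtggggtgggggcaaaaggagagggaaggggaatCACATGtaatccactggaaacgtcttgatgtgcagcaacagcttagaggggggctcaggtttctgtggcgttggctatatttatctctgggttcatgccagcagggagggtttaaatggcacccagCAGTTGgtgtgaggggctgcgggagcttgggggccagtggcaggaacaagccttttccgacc
Myf5, chr10:107486085-107486384, minus strand: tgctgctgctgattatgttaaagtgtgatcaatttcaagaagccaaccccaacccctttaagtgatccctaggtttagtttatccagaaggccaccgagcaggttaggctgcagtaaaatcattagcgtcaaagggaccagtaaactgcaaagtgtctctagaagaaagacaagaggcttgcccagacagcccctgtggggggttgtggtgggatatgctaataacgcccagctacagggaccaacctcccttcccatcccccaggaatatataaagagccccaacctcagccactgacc
Meox2, chr12:37108290-37108589, plus strand: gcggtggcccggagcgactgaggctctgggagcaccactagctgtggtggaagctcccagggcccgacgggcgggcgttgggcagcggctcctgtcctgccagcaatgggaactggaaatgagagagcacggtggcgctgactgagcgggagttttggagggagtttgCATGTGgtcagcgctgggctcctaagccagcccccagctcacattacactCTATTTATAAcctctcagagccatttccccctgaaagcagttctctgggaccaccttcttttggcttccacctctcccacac

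Counted from the start base as 0, the Myog window held CANNTG at −138 and −12, and the Meox2 window held CANNTG at −82 and a MEF2 match at −32. No match was found in the Myf5 window. The Myog window also held ctatatttat, which departs from the MEF2 pattern only at its last base and was not counted. CANNTG was found in 63.4% of the 82 called genes with a promoter in the table and in 60.8% of the 6290 such genes tested. A MEF2 match was found in 2.44% of these called genes and in 1.45% of these genes tested. The matches are descriptions of the letters and do not mark binding sites, and a window without a match may still hold one.

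Myog had signals of 1581 and 1318 in head at E11.5 and 40.4 and 25.3 in head at E9.5, against 825 and 1127 in trunk at E11.5 and 112 and 243 in trunk at E9.5. It was dim in head at E9.5. At E11.5 it was higher in head than in trunk on both arrays, but this gap of 0.58 was not called (limma adjusted p = 0.61). Myog rose by 5.50 in head (limma adjusted p = 8.7e-06) and by 2.55 in trunk (adjusted p = 0.00073). The value was 2.95 ± 0.51 (adjusted p = 0.0133, and 0.0589 without trunk E11.5 replicate 1), and with signals raised to the array median it was 1.17 and was not called.

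Myf5, whose locus also drives the Cre, had signals of 1787 and 1772 in head at E11.5 and 525 and 771 in head at E9.5, against 1078 and 1261 in trunk at E11.5 and 999 and 1305 in trunk at E9.5. Head rose by 1.48 (limma adjusted p = 0.0016), while the trunk arrays of both stages overlapped, with a change of 0.03 (adjusted p = 0.95). The gap was −0.84 at E9.5 (adjusted p = 0.031), 0.96 at E10.5 (adjusted p = 0.027) and 0.61 at E11.5 (adjusted p = 0.21). The value was 1.45 ± 0.29 (adjusted p = 0.0307, and 0.111 without trunk E11.5 replicate 1).

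Myod1 and Pax7 were not called. Myod1 had signals of 2156 and 2337 in head at E11.5 and 56.9 and 96.5 in head at E9.5, against 1198 and 879 in trunk at E11.5 and 70.1 and 73.5 in trunk at E9.5. It was dim in both regions at E9.5, and the value was 1.08 with a 95% interval of 0.15 to 2.02 before adjustment and an adjusted p of 0.31 by limma, or 1.12 with signals raised to the array median. Pax7, the paired box factor of muscle stem cells, had a value of 0.66, with an interval of −1.15 to 2.48 (adjusted p = 0.858), or 0.10 with signals raised to the array median. Myf6 was not tested.

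Most sarcomere genes tested rose in each region. Of 41 genes 27 were tested, and 0 were called higher and 1 lower, beside 0.272% and 1.2% of all genes. A head rise was called for 16, beside 2.75% of all genes, and a trunk rise for 22, beside 8.73%, and the median difference in change was −0.31. The median gap was 0.20 at E9.5, −1.67 at E10.5 and −0.31 at E11.5. The call was Myh7, the slow and cardiac myosin heavy chain, with signals of 241 and 182 in head at E11.5 and 646 and 274 in head at E9.5, against 816 and 314 in trunk at E11.5 and 35.9 and 40.8 in trunk at E9.5. The arrays of head at E9.5 differed from each other by over 2-fold, as did those of trunk at E11.5, and the value was −4.73 ± 0.70 (limma adjusted p = 0.00557), or −3.22 with signals raised to the array median. Of 32 genes of the muscle membrane and calcium handling 15 were tested and 0 were called, beside 1.48% of all genes, with a median of −0.01.

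Myc, Stc2, Cluh and Chchd4 were further crossing genes that were higher in head at E11.5. Myc, a transcription factor of cell growth, had signals of 574 and 455 in head at E11.5 and 271 and 287 in head at E9.5, against 188 and 341 in trunk at E11.5 and 690 and 592 in trunk at E9.5. Each region was above the other at 1 stage, and trunk fell by 1.33 (limma adjusted p = 0.008). The value was 2.21 ± 0.39 (adjusted p = 0.0159, and 0.0717 without trunk E9.5 replicate 1). Stc2, a secreted glycoprotein, had a value of 2.45 ± 0.47 (adjusted p = 0.0258), or 1.76 with signals raised to the array median. The values were, for Cluh, which binds messenger RNAs of mitochondrial proteins, 1.55 ± 0.33 (adjusted p = 0.04) and, for Chchd4, a mitochondrial import factor, 1.52 ± 0.25 (adjusted p = 0.00934). The highest adjusted p after leaving out 1 array was 0.0938 for Stc2 (head E11.5 replicate 2) and 0.145 for Cluh (trunk E11.5 replicate 2), while Chchd4 kept its call.

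The 10 divergent genes became 40 of 148 called with signals raised to the array median. Col14a1, a fibril-associated collagen, opened a gap toward trunk. It had signals of 110 and 104 in head at E11.5 and 107 and 81.5 in head at E9.5, against 1170 and 1344 in trunk at E11.5 and 134 and 219 in trunk at E9.5. Head stayed near the array median while trunk rose by 2.87 (limma adjusted p = 0.00012), and the value was −2.68 ± 0.43 (adjusted p = 0.00899), or −2.87 with signals raised to the array median. Without probe sets with suffix _s, _x or _a it was −1.76 and was not called (adjusted p = 0.216). Pcolce2 opened a gap toward head. This enhancer of procollagen processing had signals of 872 and 767 in head at E11.5 and 178 and 218 in head at E9.5, against 64.7 and 59.0 in trunk at E11.5 and 180 and 122 in trunk at E9.5. It rose in head by 2.05 (adjusted p = 0.00097) and fell by 1.26 in trunk (adjusted p = 0.0084), with a value of 3.31 ± 0.37 (adjusted p = 0.00116), or 2.49 with signals raised to the array median.

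Its paralog Pcolce went the other way, with signals of 1003 and 902 in head at E11.5 and 1328 and 1661 in head at E9.5, against 2108 and 2965 in trunk at E11.5 and 1186 and 1319 in trunk at E9.5, and a value of −1.64 ± 0.30 (limma adjusted p = 0.0199). Another probe set of Pcolce gave −1.07 and was not called (limma adjusted p = 0.29). Colec12, a scavenger receptor, fell by 2.07 in head (adjusted p = 0.0006) and had a value of −1.87 ± 0.35 (adjusted p = 0.0221). Abat, which degrades GABA, had a value of −2.07 ± 0.40 (adjusted p = 0.0262), and Ptpn13, a tyrosine phosphatase, −1.40 ± 0.31 (adjusted p = 0.0484). Pa2g4, a growth regulator, had a value of 0.96 ± 0.19 (adjusted p = 0.0307), or 0.43 (adjusted p = 0.604) without probe sets with suffix _s, _x or _a, and Rrm2, a subunit of ribonucleotide reductase, 0.54 ± 0.11 (adjusted p = 0.04). Rrm2 was the call among 31 cell cycle genes tested, whose median was 0.16, beside 1.48% of all genes called. Calls were lost for Pcolce (0.0861 without head E9.5 replicate 2), Colec12 (0.0804 without head E11.5 replicate 2), Abat (0.108) and Ptpn13 (0.146) without trunk E11.5 replicate 1, and Pa2g4 (0.121) and Rrm2 (0.155) without trunk E11.5 replicate 2.

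**Figure D5:**
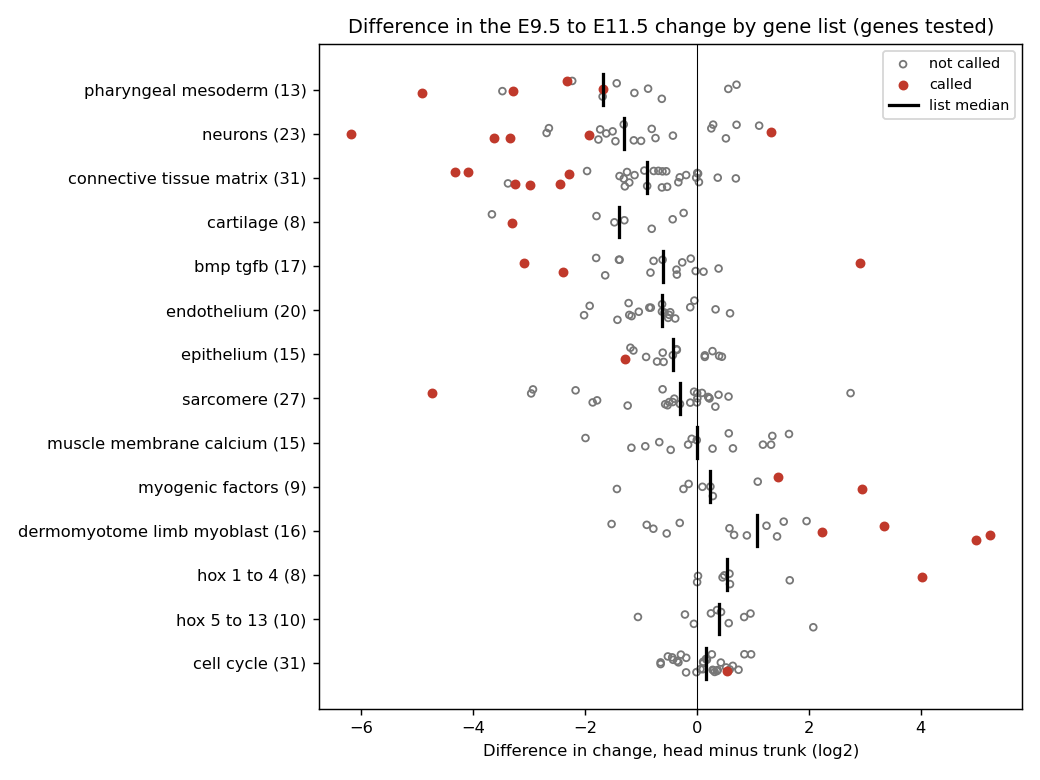
Difference in change (log2, head minus trunk) of each gene tested in 14 lists, with called genes in red, other genes as open circles and the list median as a bar. The median was −1.68 for pharyngeal mesoderm and 1.06 for dermomyotome and limb myoblasts.

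Endothelial and epithelial markers held 0 and 1 calls. Of 20 endothelial markers tested of 23 none was called, which in a list of this size is near the 1.48% of all genes. Of the 20 estimates 18 were negative, with a median of −0.63. Their summed signal was 3833 to 5878 in head at E11.5 and 5236 to 7929 in head at E9.5, against 2732 to 2972 in trunk at E11.5 and 2136 to 2578 in trunk at E9.5. For epithelial markers a fall was called for 9 of 15 in head, beside 2.03% of all genes, and for 6 of 15 in trunk, beside 4.71%. Their summed signal was 2894 to 3021 in head at E11.5 and 9272 to 10366 in head at E9.5, against 1533 to 2449 in trunk at E11.5 and 3569 to 4062 in trunk at E9.5. The epithelial call was Epcam, an adhesion molecule, with signals of 244 and 284 in head at E11.5 and 1167 and 1247 in head at E9.5, against 178 and 155 in trunk at E11.5 and 318 and 301 in trunk at E9.5. Head was higher than trunk at both stages, and the value was −1.29 ± 0.28 (limma adjusted p = 0.0474), with a call that was lost without any 1 of the 12 arrays (adjusted p up to 0.16, without trunk E11.5 replicate 1).

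Of 6 erythroid, 6 macrophage and leukocyte, 13 neural crest and ectomesenchyme and 6 sclerotome and tendon markers tested, none was called, with medians of −1.16, −0.19, −0.63 and 0.02. The Notch (20 tested), Wnt (18), FGF (8), Hedgehog (9), hypoxia and glycolysis (16), immediate early and heat shock (20) and early embryo (3) lists also held 0 calls. Of 4 cardiac genes tested Isl1 was called, and of 4 forebrain, midbrain and eye genes Lhx2. Over all 30 lists 33 of 399 genes tested were called, beside 1.48% of all genes. The lists were written with earlier results of these data known.

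On the X chromosome lay 11 of the 114 called genes (9.65%), against 245 of all 7722 genes tested (3.17%). The value was negative for Dcx, Stk26, Capn6, Maged2, Rap2c, Gpm6b, Bgn, Egfl6, Dach2 and Amot, and positive for Enox2. Of the 245 X-linked genes 141 had a negative estimate, beside 3785 of all 7722 genes. Among all 114 called genes the value was negative for 93. Where other probe sets of a called gene passed the filter, 63 of 65 had the same sign as the one tested, and the exceptions belonged to Amot and Ncam1. Of the 63, 22 were called themselves, with the adjustment made over every probe set that passed.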

How the data were processed

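The authors deposited probe set signals of Affymetrix mouse arrays, with intensity as their unit on a linear scale. Per the submitters' processing notes they were made with MAS5 and Affymetrix Expression Console. Versions and any later normalization are not given in the sources used here, and detection calls were not used. Between arrays the 10th to 99th percentiles differed by at most 0.035 (log2), so log2 was taken without further normalization. Of 22690 probe sets, 20380 stood for 1 gene in the probe annotation, and 11739 of these had at least 2 of 12 arrays above their array's median. The one of highest mean was used for each of 7722 genes. limma 3.58.1 in R 4.3.3 was fitted to all 12 arrays with 6 group means and a variance trend on intensity, giving 6 degrees of freedom from the arrays and 5.87 from the prior, with two-sided tests and Benjamini-Hochberg adjustment. The precision is limited by 2 arrays a group. The fit was tested on simulated data. The gene lists came from textbook knowledge, and the members and lists were chosen with earlier results of these data known. Named genes are up to 5 called genes per pattern and region by size on signals raised to the array median, up to 4 called members of each list, and 12 regulators whatever their value. Alternatives covered normalization, dim signals, filters, probe sets, samples, variance model, replicate block, single arrays left out and the crossing cutoff.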

Additional observations from a re-analysis of the deposited data

Results flagged for a closer look

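Head and trunk differed in their change between the stages, by the test of the difference itself (limma, adjusted p under 0.05), for 114 genes and among them for 45 genes named here. All values are on the log2 scale, head change minus trunk change. Among convergent genes higher in head at E9.5 they were −3.63 for Dcx, −2.39 for Emp1, −1.29 for Epcam, −1.39 for Igfbp5, −2.33 for Isl1, −4.91 for Lhx2, −3.34 for Neurod1, −3.25 for Ppp1r17, −1.68 for Tbx1 and −2.63 for Unc5c. Among convergent genes higher in trunk they were 4.98 for Dmrt2, 3.46 for Fap, 2.90 for Fst, 4.02 for Hoxd1, 3.34 for Meox1, 2.24 for Meox2 and 1.32 for Ncam1.

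Among crossing genes higher in head at E11.5 the values were 1.52 for Chchd4, 1.55 for Cluh, 5.24 for Lbx1, 2.21 for Myc, 1.45 for Myf5, 2.95 for Myog and 2.45 for Stc2. Crossing genes higher in trunk had −3.09 for Bmp4, −3.31 for Col11a1, −2.95 for Crabp1, −3.30 for Ebf2, −4.40 for Fabp7, −3.92 for Igf1, −4.33 for Lum, −4.73 for Myh7, −6.18 for Neurog1, −2.98 for Postn, −2.28 for Sparc, −2.40 for Tgfbi and −4.09 for Tnc. Divergent genes had 0.96 for Pa2g4, 3.31 for Pcolce2 and 0.54 for Rrm2 toward head, and −2.07 for Abat, −2.68 for Col14a1, −1.87 for Colec12, −1.64 for Pcolce and −1.40 for Ptpn13 toward trunk.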

How the results depend on the processing

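The 114 called genes comprised 59 convergent, 10 divergent and 45 crossing. With signals raised to the array median 148 genes were called, 86 of them shared, with 40 divergent, and 52 positive and 96 negative (35.1% positive, against 18.4%). The divergent count was 16 with a pseudocount of 32, 6 without probe sets with suffix _s, _x or _a, and 4 without an intensity trend. In the fit of only the 8 arrays, 63 genes were called, 26 convergent and 4 divergent, and without both E10.5 replicate 1 arrays, chosen after seeing the data, 63, 27 and 4. With replicate number within stage as a replicate block, 69 genes were called, 30 convergent and 4 divergent, and with the block over all stages 102. Deviations of same-numbered head and trunk arrays correlated at 0.0057, −0.00053 and −0.096 (E9.5, E10.5, E11.5), so no sign of pairing was found over all genes, although both E10.5 arrays numbered 1 alone had low Xist. A crossing cutoff of 0 gave 28 convergent, 2 divergent and 84 crossing genes, and a cutoff of 1 gave 17 divergent and 24 crossing. Leaving out each array in turn gave 57 to 120 called, 21 to 65 convergent, 3 to 13 divergent and 26 to 49 crossing genes. Ncam1 turned to −0.058 (limma adjusted p = 0.988) without suffixed probe sets. Of the 45 named called genes, 18 were called under every setting. Crossing genes outnumbered convergent ones in the fit of 8 arrays (33 to 26), with the block within stage (35 to 30) and at a cutoff of 0. The cause of these shifts was not tested. At an unadjusted p under 0.05, 943 genes passed.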
